A study of Homo sapiens with 6 samples.

Results

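The genes described here are 39 genes of the NRF2 antioxidant program, of glutathione and thioredoxin metabolism and of the pentose phosphate pathway, measured by RNA-seq in PANC-1 cells with or without maslinic acid (MA). They were taken by gene symbol from the 58825 gene identifiers of the expression table, and the rule uses no difference between the groups, the mean FPKM over all samples serving only to choose among several identifiers of 1 symbol. PANC-1 is a cell line of human pancreatic ductal carcinoma, and MA is a pentacyclic triterpenoid acid found in olives. The treated group, named MA PANC-1 with replicates 1 to 3, received 40 μM MA during 24 h. The untreated group, PANC-1 with replicates 1 to 3, was kept without MA over the same 24 h, and the study describes the samples as biological replicates. The labels name no other agent or allele in either group, and the line stands for 1 tumor. The methods of the study name DMSO as the alternative to MA, and the labels do not say whether these controls received it. The comparison asked which transcripts changed with MA.

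NRF2, encoded by NFE2L2, is a transcription factor that is held low by KEAP1, an adaptor that hands it to a CUL3 ubiquitin ligase. When oxidants or electrophiles modify KEAP1, the NRF2 protein accumulates, pairs with a small MAF protein and binds antioxidant response elements near genes for glutathione synthesis, thiol reduction, quinone and heme detoxification and NADPH supply, while BACH1 competes for the same elements as a repressor. Because this control acts largely on the protein, the NFE2L2 transcript alone does not report NRF2 activity. In pancreatic carcinoma the program is known for lowering oxidant levels in tumor cells.

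The estimated counts, which are not a number of reads, had totals of 56978375, 63984133 and 58181114 for the treated replicates 1 to 3. For the untreated replicates they were 70275355, 65607669 and 59422939. MA PANC-1 2 stood apart from the other 5 samples. Its score on the first principal component of all genes tested was -73.6, against -29.5 and 16.2 for the other treated replicates (1 and 3) and 18.0 to 44.9 for the untreated ones. Its count-weighted GC content was 52.2%, against 50.9% to 51.4% in the others, and its TMM factor was the lowest of the 6 at 0.94. MA PANC-1 1 stood apart on the second component, at 72.2 against -43.0 to 7.85 in the others, and had the lowest mitochondrial share of the counts, 5.48% against 6.33% to 6.8%. The line was checked by its markers. KRT8 (141 to 225 FPKM), KRT18 (278 to 338 FPKM) and VIM (521 to 754 FPKM) were abundant in all 6 samples. They are the intermediate filament genes of an epithelial line with mesenchymal traits. The other epithelial and ductal markers were low: KRT19 and EPCAM stayed at or below 0.132 FPKM. CDH1 stayed at or below 1.28 FPKM and KRT7 at or below 2.19 FPKM. Of the other mesenchymal markers, CDH2 had 12.2 to 17.3 FPKM, while ZEB1 stayed at or below 1.42 FPKM. Of 19 markers of other cell types (acinar, endocrine, blood, endothelial, fibroblast, hepatocyte), 8 had no count in any sample: PRSS1, CPA1, AMY2A, INS, GCG, SST, CD3E and ALB. CELA3A, PTPRC, CD14, HBB, PECAM1, VWF, CDH5, DCN and APOA1 stayed at or below 16 counts a sample. The fibroblast marker LUM had 64 to 135 counts a sample, and COL1A2 had 228 and 351 in MA PANC-1 1 and 2, 361 in PANC-1 1 and 0 in the other 3 samples. FPKM, the deposited unit, is scaled by transcript length and library depth, so levels can be compared between genes. RNA was measured relative to each library's total, so fewer expressing cells and less RNA per cell cannot be told apart.

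Most of the antioxidant genes tested had a positive log2 fold change after MA, in most cases a small one. Fewer passed the unadjusted threshold, and none the adjusted one in edgeR. Of the 39 genes, 34 had a mean FPKM of at least 0.1 and were tested, and 27 of the 34 had a log2 fold change above 0, against 49.8% of all 17774 genes tested. At an unadjusted p under 0.05 (edgeR quasi-likelihood test), 11 of the 34 were higher after MA, against a background of 5.37%, and 1 was lower, against a background of 5.86%. None of the 34 reached an adjusted p under 0.05, which 0.0394% of all genes did, and none was a DEG by the thresholds of the study (unadjusted p under 0.05 with expression raised to 2 times or lowered to 0.5 times the untreated level, or beyond), which 1.92% were. The 2 groups did not overlap in FPKM for 13 of the 34 that were higher after MA (background 8.79%) and for 1 that was lower (background 11.1%). The median log2 fold change of the 34 genes was 0.20, beside a median of -0.00 over all genes tested. Because the members were listed with earlier results of these data known, these shares are descriptions and carry no test.

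Expression level bears on these shares, since abundant genes in general leaned upward. The median log2 fold change of all genes went from -0.10 at 0.1 to 1 FPKM to 0.10 at 30 to 100 FPKM. Among genes with a mean of at least 10 FPKM, 24 of the members were found: 10 were higher at an unadjusted p under 0.05 (background 11.0%), 21 had a log2 fold change above 0 (background 65.0%) and 12 did not overlap and were higher (background 17.4%). Their median was 0.22, beside 0.09 for all 3930 genes of that level. The count of higher members moved with single samples, and so did the share of all genes tested in the same fit. With an untreated sample left out, it was 5 (PANC-1 1, background 3.10%), 7 (PANC-1 2, 3.52%) or 8 (PANC-1 3, 3.26%). With a treated sample left out, it was 6 (MA PANC-1 1, 3.80%), 8 (MA PANC-1 2, 4.51%) or 13 (MA PANC-1 3, 8.39%). By DESeq2, 3 members reached an adjusted p under 0.05 (TXNRD1, OSGIN1 and EPHX1), against 1.80% of the 14623 genes given an adjusted p.

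**Figure D1:**
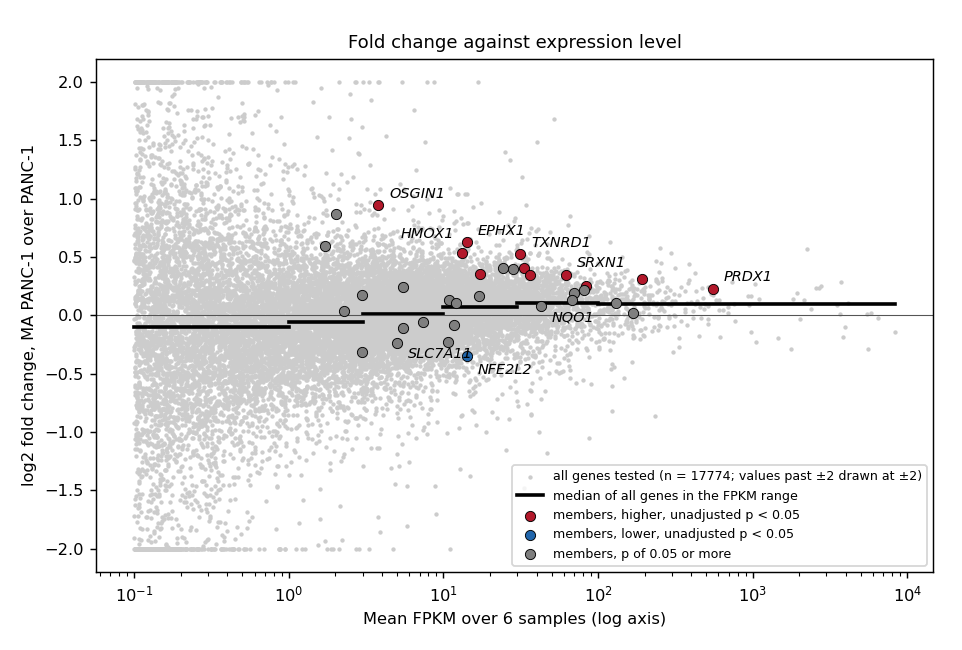
Log2 fold change (MA PANC-1 over PANC-1, edgeR) against mean FPKM over the 6 samples on a log axis, with every gene tested in grey, black bars for the median of all genes in each FPKM range, and members in red (higher at unadjusted p under 0.05), blue (lower) or dark grey. The grey cloud's median climbs from -0.10 to 0.10 with level, and 27 of 34 members lie above 0.

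Summed over all 39 genes, the members reached 1904, 1864 and 1838 FPKM in the treated replicates 1, 2 and 3, and 1624, 1645 and 1694 FPKM in the untreated ones. The treated sum was 1.13 times the untreated sum (1868 ± 33.2 against 1654 ± 36.0 FPKM, SD). The groups did not overlap. The sum of 12 housekeeping genes, measured the same way, was 1.09 times the untreated sum (4589 ± 180 against 4194 ± 245 FPKM, SD), and its groups did not overlap either. GAPDH alone gave 2738 FPKM of the treated mean and 2390 FPKM of the untreated one, so that sum mostly describes GAPDH. Gene by gene, 3 of the 12 did not overlap and were higher (background 8.79%), and 1 was lower (background 11.1%). PRDX1 alone made up 31.2% of the members' mean FPKM, GSTP1 10.9% and TXN 9.55%, and without PRDX1 the ratio was 1.12. Sample by sample, 19, 18 and 20 of the 34 tested members lay above every untreated sample in MA PANC-1 1, 2 and 3 (backgrounds 29.6%, 28.2% and 28.8%), and 5, 8 and 2 lay below every untreated sample (backgrounds 30.9%, 41.8% and 26.5%). Among the 24 members at 10 FPKM or more, 16, 15 and 16 lay above, against 42.8%, 45.5% and 36.8% of all genes of that level.

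**Figure D2:**
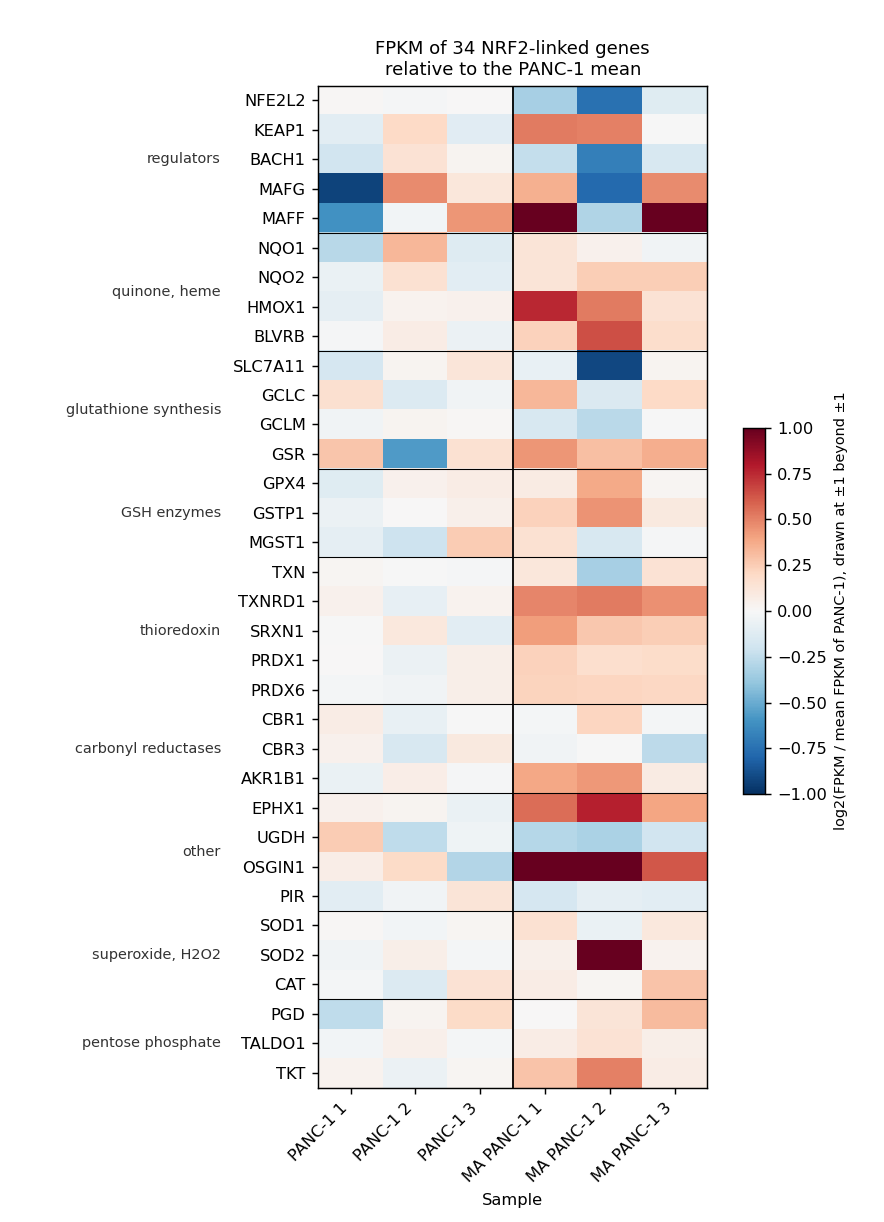
Log2 ratio of each sample's FPKM to the mean FPKM of the 3 PANC-1 samples for the 34 members tested, in rows ordered by role, with the 3 PANC-1 samples left of the line and the 3 MA PANC-1 samples right of it (colors are capped at 1 in either direction). TXNRD1, SRXN1, PRDX1, PRDX6, EPHX1 and OSGIN1 are red in all 3 treated samples, while SLC7A11, BACH1, MAFG, NFE2L2 and SOD2 have their most extreme treated value in MA PANC-1 2.

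The promoters of several members carry the core letters of the antioxidant response element, to which NRF2 binds, and a few of these windows are printed. TGACNNNGC was searched on both strands from 250 bases before to 50 bases after each RefSeq gene start (GRCh38.p14). These letters overlap with motifs of the AP-1 and large MAF families, so a match is not specific to NRF2. Entries were found for 31 of the 39 genes (none for PRDX6, AKR1B10, SLC7A11, HMOX1, SOD1, CBR3, PRDX1 and GSR). Of these 31 genes, 11 had the letters at 1 or more starts (35.5%), as had 16.1% of the 27305 genes of the table; by window, 12 of the members' 48 promoters (25.0%) held them, against 13.3% of all 35116. Windows are printed for TXNRD1, EPHX1, GSTP1, GCLM and KEAP1. PGD, MGST1, CBR1, MAFF, PIR and the untested GPX2 also had a match and are not printed. Each matching part is in capitals, on the strand of the gene. Both TXNRD1 starts had a match. The first had matches at -99 and, on the opposite strand, at -8, and the window printed for it, chr12:104215654-104215714 on the plus strand, holds the one at -99. The window of the second start lay at chr12:104286904-104286964, inside the gene, with its match at -102. The EPHX1 window lay at chr1:225825250-225825310 (plus strand, match at -78), inside the gene, whose span begins at 225810092. The GSTP1 window lay at chr11:67583720-67583780 (plus strand, match at -66). Which starts are used in these cells was not tested. The GCLM window lay at chr1:93909430-93909490 (minus strand, match at -34) and the KEAP1 window at chr19:10502791-10502851 (minus strand, matches at -54 and -31).
TXNRD1 first start: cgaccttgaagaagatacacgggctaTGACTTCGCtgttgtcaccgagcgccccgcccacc
TXNRD1 second start: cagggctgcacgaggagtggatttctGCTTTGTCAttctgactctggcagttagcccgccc
EPHX1: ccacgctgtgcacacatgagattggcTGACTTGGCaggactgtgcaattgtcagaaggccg
GSTP1: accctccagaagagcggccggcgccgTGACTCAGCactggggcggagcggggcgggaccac
GCLM: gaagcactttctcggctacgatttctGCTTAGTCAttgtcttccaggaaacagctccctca
KEAP1: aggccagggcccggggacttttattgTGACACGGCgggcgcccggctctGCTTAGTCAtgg

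TXNRD1, EPHX1 and GSTP1 were higher after MA at an unadjusted p under 0.05, while GCLM and KEAP1 were not. Among the members with an entry, 3 of 8 that were higher held the letters, as did 7 of the 19 others tested, so their presence did not separate the 2 sets. No match says only that these letters are not in this window.

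The regulators came first by role. NFE2L2 (chr2:177227595-177287777, GRCh38) was the member that was lower after MA. Its FPKM was 12.7, 9.52 and 14.6 in MA PANC-1 1, 2 and 3 and 16.1, 15.8 and 16.0 in PANC-1 1, 2 and 3. All treated samples lay below all untreated ones, and MA PANC-1 2 was the lowest. The log2 fold change was -0.35 ± 0.13 (SE), or 0.785-fold, with a 95% interval from -0.67 to -0.03 and an adjusted p of 0.433 by edgeR. Without MA PANC-1 2 it was -0.23, still under the unadjusted threshold. KEAP1 (chr19:10486125-10503356), the negative regulator, had 35.5, 35.1 and 24.6 FPKM after MA and 22.9, 28.3 and 22.9 FPKM untreated. MA PANC-1 1 and 2 were high and MA PANC-1 3 fell within the untreated range. The log2 fold change of 0.40 ± 0.18 had a 95% interval from -0.03 to 0.83 (adjusted p = 0.464, edgeR). It was 0.26 with each library's trend of expression against GC content removed, and KEAP1 came under the unadjusted threshold by DESeq2. BACH1, the repressor, had 2.81, 2.07 and 2.97 FPKM after MA and 2.91, 3.67 and 3.39 FPKM untreated. These ranges overlapped, with a log2 fold change of -0.32 ± 0.15 (adjusted p = 0.48, edgeR) that was -0.20 without MA PANC-1 2, or -0.13 with a trend of the fold change with GC content removed. The small MAF partners varied widely between replicates: MAFG ranged from 5.45 to 14.4 FPKM among untreated samples and from 6.05 to 14.3 FPKM among treated ones, and MAFF had 3.63, 1.16 and 3.00 FPKM after MA against 0.942, 1.41 and 1.95 FPKM, with intervals of the log2 fold change that reached from -0.82 to 1.08 and from -0.12 to 1.86.

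The thioredoxin and peroxiredoxin genes had 4 of 5 members higher at an unadjusted p under 0.05 (background 5.37%, or 11.0% at 10 FPKM or more, where all 5 lie). TXNRD1 (chr12:104215779-104350307), thioredoxin reductase, which uses NADPH to reduce thioredoxin, had 36.6, 37.5 and 35.9 FPKM in MA PANC-1 1, 2 and 3 and 26.9, 24.7 and 26.7 FPKM in PANC-1 1, 2 and 3. The lowest treated value was well above the highest untreated one, and the 3 treated samples were close together. Its log2 fold change was 0.53 ± 0.09, 44.1% higher, with a 95% interval from 0.32 to 0.73 and an adjusted p of 0.188 by edgeR, the lowest among the members. A ribosomal protein pseudogene, RPL18AP3, lies inside TXNRD1 with 4091 to 6061 counts a sample. With the counts of overlapping genes added, the log2 fold change of TXNRD1 was 0.44.

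SRXN1 (chr20:646615-653370), sulfiredoxin, which repairs overoxidized peroxiredoxins, had 73.9, 66.6 and 65.7 FPKM after MA and 55.1, 59.6 and 51.5 FPKM untreated. The groups did not overlap, and the log2 fold change was 0.35 ± 0.10 (adjusted p = 0.388, edgeR). PRDX1 (chr1:45511036-45521938), the most abundant member and a peroxidase that removes hydrogen peroxide, had 601, 576 and 583 FPKM after MA and 515, 492 and 534 FPKM untreated. PRDX6 (chr1:173477330-173488815), a peroxiredoxin that draws on glutathione, had 89.5, 89.4 and 88.9 FPKM after MA, the tightest group of any member tested, and 75.8, 74.9 and 80.0 FPKM untreated. Both were higher in every treated sample than in every untreated one, by log2 fold changes of 0.23 ± 0.08 (adjusted p = 0.429) and 0.25 ± 0.08 (adjusted p = 0.414). TXN, thioredoxin itself, had 182, 134 and 186 FPKM after MA and 171, 168 and 168 FPKM untreated. MA PANC-1 2 was the only treated sample below the untreated ones, and the log2 fold change was 0.02 with a 95% interval from -0.24 to 0.29. With the GC trend removed, it was 0.36 and under the unadjusted threshold.

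**Figure D3:**
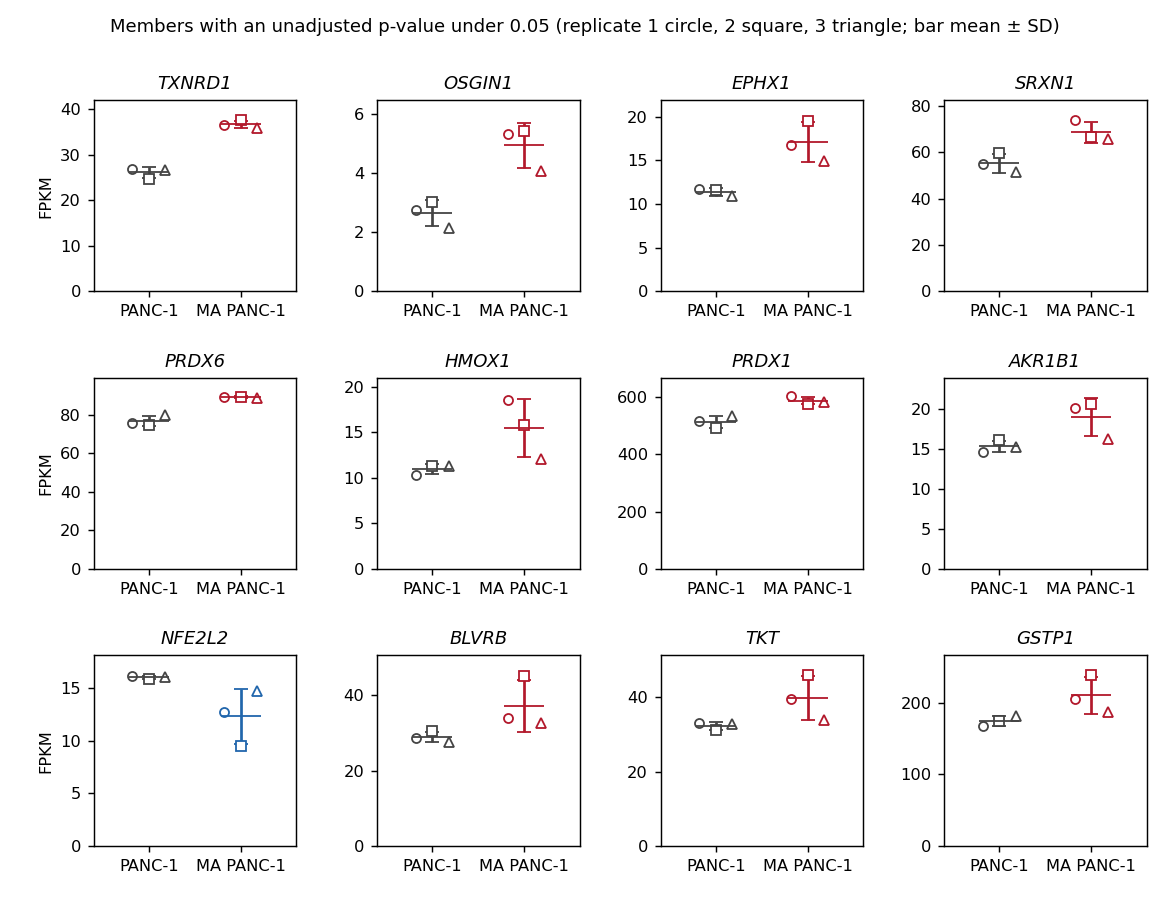
FPKM of the 12 members with an unadjusted p under 0.05 in edgeR, 1 panel a gene with its own axis from 0, with a symbol for each replicate (circle 1, square 2, triangle 3) and the mean ± SD as bars, PANC-1 in grey and MA PANC-1 in red (higher) or blue (lower). Treated and untreated symbols do not overlap in any of the 12 panels, and the gap is widest relative to the spread in TXNRD1.

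Heme and quinone detoxification was split. HMOX1 (chr22:35380361-35390293), heme oxygenase 1, which opens the heme ring and is repressed by BACH1, had 18.5, 15.8 and 12.1 FPKM after MA and 10.3, 11.3 and 11.3 FPKM untreated. MA PANC-1 3 lay just above the untreated samples and the other treated samples well above them, and the log2 fold change was 0.53 ± 0.17 (adjusted p = 0.414, edgeR). BLVRB, biliverdin reductase B, which acts downstream of heme oxygenase, had 33.8, 45 and 32.6 FPKM after MA and 28.6, 30.3 and 27.7 FPKM untreated. Its log2 fold change of 0.41 ± 0.17 (adjusted p = 0.439, edgeR) was 0.20 without MA PANC-1 2, the highest sample, and then missed the unadjusted threshold. NQO1 (chr16:69706996-69726668), the quinone reductase often used as a readout of NRF2, had 45.8, 43.2 and 40.9 FPKM after MA and 34.7, 52.7 and 38.4 FPKM untreated. The treated samples lay inside the untreated range, and the log2 fold change was 0.08 with a 95% interval from -0.31 to 0.47. NQO2, its paralog, had a log2 fold change of 0.25 ± 0.11 (adjusted p = 0.467, edgeR) at 4.69 to 6.0 FPKM.

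Among the members, the genes of cystine uptake and glutathione synthesis (SLC7A11, GCLC, GCLM and GSR) had no unadjusted p under 0.05 in either direction (backgrounds 5.37% higher and 5.86% lower). SLC7A11 (chr4:138164097-138242349), the cystine carrier, had 5.18, 2.91 and 5.57 FPKM after MA and 4.88, 5.57 and 5.96 FPKM untreated. Only MA PANC-1 2 fell below the untreated samples, and the log2 fold change was -0.24 ± 0.22 (adjusted p = 0.678, edgeR), or -0.03 without that sample. GCLC and GCLM encode the catalytic and modifier subunits of glutamate-cysteine ligase, the rate-limiting enzyme of glutathione synthesis. GCLC had 3.54, 2.54 and 3.21 FPKM after MA and 3.13, 2.55 and 2.73 FPKM untreated (log2 fold change 0.17, 95% interval -0.15 to 0.50). This value was 0.08 without MA PANC-1 1, and with the GC trend removed it was 0.29 and under the unadjusted threshold. GCLM had 5.10, 4.74 and 5.69 FPKM after MA and 5.57, 5.83 and 5.75 FPKM untreated (-0.11, 95% interval -0.35 to 0.13). Both pairs of groups overlapped. GSR, which reduces oxidized glutathione, had 29, 26.2 and 27.4 FPKM after MA and 25.8, 14.4 and 23.7 FPKM untreated, where PANC-1 2 was low. Its groups did not overlap, but the log2 fold change of 0.41 ± 0.20 had a 95% interval from -0.07 to 0.88 (adjusted p = 0.485, edgeR) and was 0.19 without PANC-1 2. Without PANC-1 1 it was 0.56 and under the unadjusted threshold.

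Among the enzymes that use glutathione, GSTP1 (chr11:67583595-67586656), the most abundant of the glutathione transferases measured here, had 205, 239 and 187 FPKM after MA and 168, 175 and 181 FPKM untreated. The log2 fold change was 0.31 ± 0.13 (adjusted p = 0.441, edgeR). Without MA PANC-1 2, the highest sample, it was 0.16 and missed the unadjusted threshold. GPX4, the peroxidase that reduces lipid hydroperoxides in membranes, ranged from 77.4 to 99.0 FPKM after MA and from 69.9 to 80.4 FPKM untreated, with overlapping groups (log2 fold change 0.21 ± 0.14, or 0.05 without MA PANC-1 2). MGST1, a microsomal transferase, stood near 2.28 FPKM in both groups. GPX2 was too low to test, with 0 to 19 counts a sample.

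The carbonyl and aldo-keto reductases remove reactive aldehydes and ketones. AKR1B1, aldose reductase, had 20.1, 20.7 and 16.2 FPKM after MA and 14.7, 16.1 and 15.2 FPKM untreated. The groups were separated narrowly, by MA PANC-1 3 against PANC-1 2, and the log2 fold change was 0.35 ± 0.13 (adjusted p = 0.432, edgeR). CBR1 and CBR3 had log2 fold changes of 0.10 ± 0.13 and -0.06 ± 0.17. The AKR1C genes, which are strongly NRF2-dependent in several other carcinoma lines, were not detected: AKR1C1 and AKR1C2 had no count in any sample and AKR1C3 had 3 counts in MA PANC-1 1 alone. A count of 0 allows up to 0.0527 CPM (counts scaled to library depth) at the shallowest library (3 counts, relative to the totals of the estimated counts, and for counting error only). The AKR1C genes are near-identical copies, and whether reads that fit several copies were kept is not given in the sources used here. AKR1B10 had 4 counts in PANC-1 3 and none elsewhere.

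The other conjugation, hydrolase and NRF2-linked genes held both the highest fold change in the fit of all samples and members without a call. EPHX1 (chr1:225810092-225845559), microsomal epoxide hydrolase, had 16.8, 19.5 and 14.9 FPKM after MA and 11.7, 11.6 and 10.9 FPKM untreated. Every treated sample was above every untreated one, and the log2 fold change was 0.63 ± 0.14, 54.4% higher (adjusted p = 0.375, edgeR). OSGIN1 (chr16:83948282-83966331), an oxidative stress induced growth inhibitor, had 5.34, 5.42 and 4.06 FPKM after MA and 2.76, 3.01 and 2.15 FPKM untreated. The groups were again separate, and the log2 fold change of 0.94 ± 0.20 (adjusted p = 0.346, edgeR), or 1.92-fold, was the largest of the members tested. UGDH, which makes the sugar donor of glucuronidation, had a log2 fold change of -0.23 ± 0.14. It was -0.08 without PANC-1 1, and -0.34 and under the unadjusted threshold without PANC-1 2. PIR, pirin, had a log2 fold change of -0.08 ± 0.11, and the groups overlapped for both.

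Of the 3 members acting on superoxide and hydrogen peroxide, none passed the unadjusted threshold (backgrounds 5.37% higher and 5.86% lower). So few genes do not set this role apart. SOD1 and CAT had log2 fold changes of 0.10 ± 0.08 and 0.17 ± 0.11, and with the GC trend removed CAT was at 0.26 and under the unadjusted threshold. SOD2, the mitochondrial superoxide dismutase, had 1.44, 3.19 and 1.42 FPKM after MA and 1.36, 1.45 and 1.37 FPKM untreated. MA PANC-1 2 alone was high and the other treated samples matched the untreated ones, so that the log2 fold change of 0.59 was 0.04 without it.

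The pentose phosphate pathway regenerates NADPH for thioredoxin and glutathione reductase. TKT (chr3:53224712-53256052), transketolase of its non-oxidative branch, had 39.4, 45.9 and 34 FPKM after MA and 33.1, 31.1 and 32.8 FPKM untreated. The log2 fold change was 0.34 ± 0.14 (adjusted p = 0.439, edgeR). Without MA PANC-1 2 it was 0.18 and missed the unadjusted threshold. TALDO1, transaldolase, had 69.6, 72.8 and 68.6 FPKM after MA and 64.7, 68.3 and 65.0 FPKM untreated. The groups were separated narrowly, by MA PANC-1 3 against PANC-1 2, and the log2 fold change was 0.13 ± 0.09 (adjusted p = 0.585, edgeR), or 0.06 without MA PANC-1 2. PGD, 6-phosphogluconate dehydrogenase, had 66.0, 71.7 and 81.7 FPKM after MA and 55.1, 67.1 and 74.8 FPKM untreated, with overlapping groups and a log2 fold change of 0.19 ± 0.14 (adjusted p = 0.599, edgeR), which was 0.08 without PANC-1 1 and 0.29 without PANC-1 3.

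**Figure D4:**
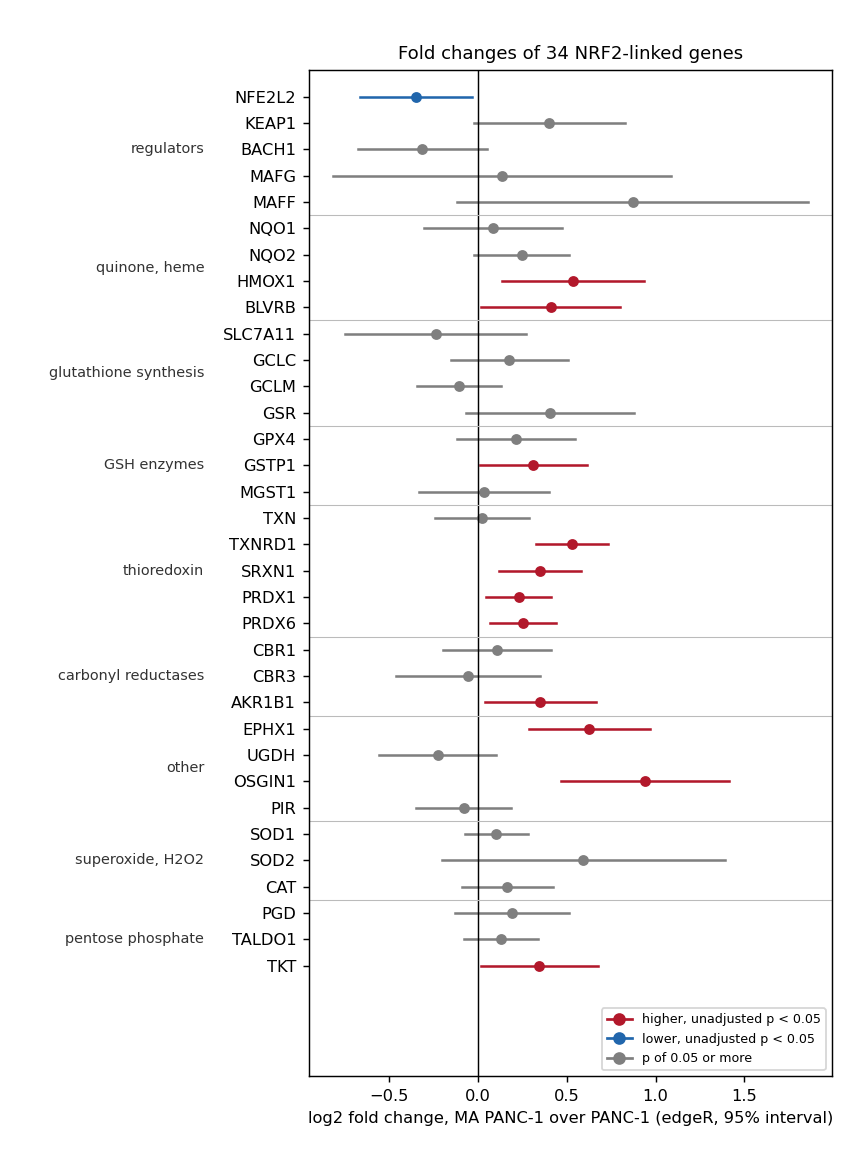
Log2 fold change (MA PANC-1 over PANC-1) of the 34 members tested with the 95% interval from edgeR, ordered by role, in red or blue where the unadjusted p was under 0.05 and in grey elsewhere. The intervals of TXNRD1, EPHX1 and OSGIN1 lie farthest from 0, NFE2L2 is the only member in blue, and MAFG, MAFF and SOD2 have the widest intervals.

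The 12 members differed in how far they depended on single samples. TXNRD1, OSGIN1, EPHX1 and SRXN1 kept an unadjusted p under 0.05 in edgeR whichever of the 6 samples was left out. HMOX1 and PRDX6 kept it in 4 of 6 such fits, PRDX1 in 3, NFE2L2 and BLVRB in 2, and AKR1B1, TKT and GSTP1 in 1. Leaving out 1 sample moved the log2 fold change by over 1.5 times for 4 of the 12 (NFE2L2, BLVRB, GSTP1 and TKT) and for 18 of the 22 other members tested. Of these 22, KEAP1, MAFF, NQO2, GSR, UGDH and SOD2 came under the unadjusted threshold in 1 or 2 of the 6 fits. Removing the trend with GC content was tried after the GC content of MA PANC-1 2 had been seen. The trend was fitted in each of the 6 libraries apart, so spread between replicates that followed GC content was removed with it. This fit left all 12 under 0.05 with their direction and gave 14 higher members in all, the 3 gained being TXN, GCLC and CAT. In that fit 7.78% of 17721 genes were higher and 6.15% lower. The log2 fold change of TXNRD1 was then 0.59, of EPHX1 0.52 and of OSGIN1 0.81, while those of BLVRB, GSTP1 and TKT came down to 0.26, 0.17 and 0.21.

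Genes of the same pathways outside the 39 were taken from 6 lists of 110 genes, of which 109 had a row and 89 were tested. At an unadjusted p under 0.05, 10 of the 89 were higher (background 5.37%) and 2 were lower (background 5.86%), and the median log2 fold change of the 89 was 0.13. These backgrounds are not matched for level. Many of the 89 are abundant, and among all genes of at least 10 FPKM 11.0% were higher, so the count of higher genes does not set the lists apart. None reached an adjusted p under 0.05 by edgeR, which 0.0394% of all genes did. By DESeq2, 6 did (NFE2L3, TRIM16, FTH1, GSS, RPE and PRPS2), against 1.80% of the 14623 genes given an adjusted p. Of 12 housekeeping genes, 2 were higher (PGK1 and GUSB, log2 fold changes 0.27 and 0.34, the latter 0.19 without MA PANC-1 2) and none lower, with a median of 0.11.

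Of the 12 other pathway regulators, 1 was higher (background 5.37%) and 1 lower (background 5.86%). NFE2L3, an NRF2-related factor, had 28.6, 20.2 and 28.0 FPKM after MA and 45.4, 43.1 and 44.4 FPKM untreated. The treated samples lay far below the untreated ones, and the log2 fold change was -0.76 ± 0.12 (adjusted p = 0.175, edgeR). MAFK, the remaining small MAF, had 20.3, 24.2 and 19.7 FPKM after MA and 16.7, 14.8 and 16.7 FPKM untreated (0.46 ± 0.13). Among 19 other NRF2 targets tested of 24, 4 were higher and none lower, against the same backgrounds. These were TRIM16 (log2 fold change 0.66) and its near-copy TRIM16L (0.75), between which reads may be split, and the ferritin chains FTL (0.56) and FTH1 (0.54), which have many processed pseudogenes. FTL had 2634, 3108 and 2257 FPKM after MA and 1871, 1974 and 1728 FPKM untreated.

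Of 25 other glutathione genes tested of 31, 3 were higher (background 5.37%) and none lower (background 5.86%). GSS, glutathione synthetase, which completes glutathione after glutamate-cysteine ligase, had 19.6, 18.6 and 17.2 FPKM after MA and 12.9, 14.0 and 12.6 FPKM untreated. Its groups were well apart (log2 fold change 0.53 ± 0.10, adjusted p = 0.254, edgeR). CHAC1, which degrades glutathione, was higher by 0.49, or 0.30 and past the unadjusted threshold no longer without MA PANC-1 2, and GSTM4, a mu-class transferase, by 0.34. In the thioredoxin list, 1 of 15 genes tested was higher (MSRB1, a methionine sulfoxide reductase, 0.44) and none lower, against the same backgrounds. In the superoxide list, none of the 3 tested passed, against the same backgrounds.

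Of 15 other pentose phosphate and NADPH genes tested, 1 was higher (background 5.37%) and 1 was lower (background 5.86%). RPE, ribulose-phosphate 3-epimerase, had 6.71, 9.76 and 9.19 FPKM after MA and 4.66, 5.70 and 4.82 FPKM untreated (0.80 ± 0.18). PRPS2, which draws ribose 5-phosphate into nucleotide synthesis, had 6.42, 5.33 and 6.89 FPKM after MA and 13.2, 11.0 and 11.7 FPKM untreated. The treated level was 0.532 times the untreated one, with a log2 fold change of -0.91 ± 0.12 (adjusted p = 0.129, edgeR).

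**Figure D5:**
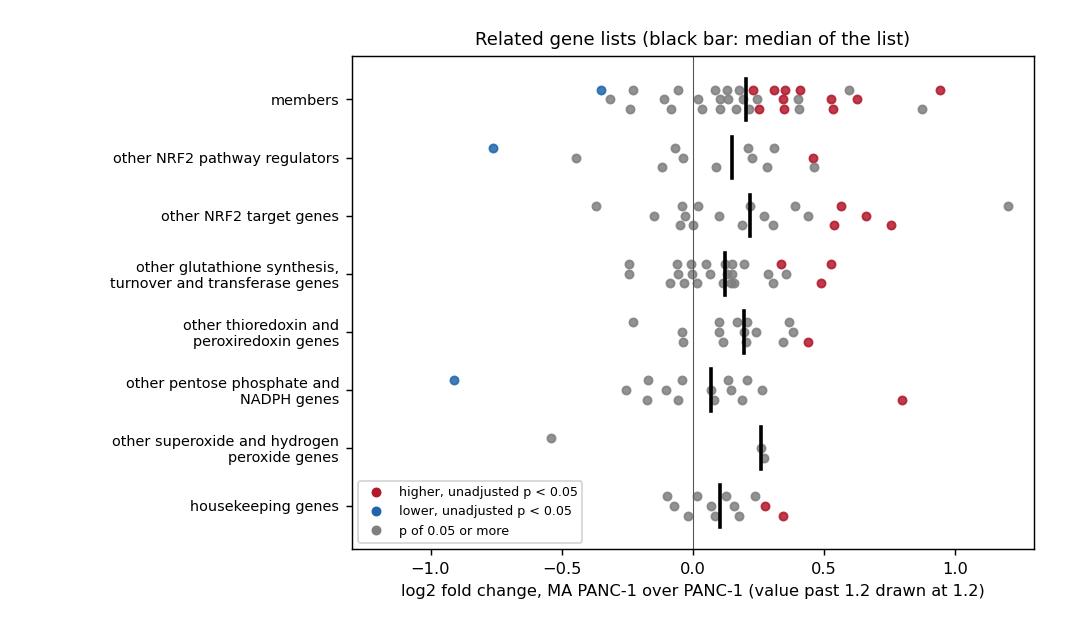
Log2 fold change (MA PANC-1 over PANC-1, edgeR) of every tested gene of the members, of the 6 related lists and of the housekeeping genes, 1 point a gene, red or blue where the unadjusted p was under 0.05, with a black bar for the list's median (1 value past 1.2, of the barely detected CES1, is drawn at 1.2). The medians run from 0.07 in the other pentose phosphate and NADPH genes to 0.26 in the 3 superoxide genes, with 0.20 for the members and 0.11 for the housekeeping genes.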

How the data were processed

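RNA of 6 PANC-1 samples was sequenced from poly(A) libraries, 3 with and 3 without MA, grouped as labelled. The submitters' processing notes name cutadapt 1.9, HISAT2 2.0.4 and StringTie 1.3.4d, and the build is not given in the sources used here: of 58552 gene identifiers also in GENCODE 29 (GRCh38), 58468 overlapped on the same strand. The authors deposited for each gene an FPKM value, normalized by them for length and depth and set to 0.0001 where no read was found, and an estimated count that was not normalized, which is a whole number. Whether counting used the strand is not given there.

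Genes averaging 0.1 FPKM or more were tested on the counts by edgeR 4.0.16 (R 4.3.3, quasi-likelihood, TMM), adjusted by Benjamini-Hochberg over 17774 genes. The standard error is the log2 fold change over the square root of F. The common biological coefficient of variation was 0.307, and counting error is small beside it for members above 1 FPKM. DESeq2 1.42.0, limma 3.58.1 on log2(FPKM + 0.1), other filters, the replicate block, left-out samples and halved counts were alternatives.

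The members and lists were chosen with earlier results of these data known. Every member is accounted for by role, with full values for those with an unadjusted p under 0.05 and for the named core genes, and related lists are named at an unadjusted p under 0.05, with 1 listed item not reported here. The p-values measure the spread between these samples. For a symbol with several identifiers the one with the highest mean FPKM was used.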

Additional observations from a re-analysis of the deposited data

How the results depend on the processing

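The 34 members kept 0 calls at an adjusted p under 0.05 in every edgeR and limma alternative, and 3 were called by DESeq2. The number of all genes with an adjusted p under 0.05, 7 in the edgeR fit, was 263 by DESeq2, 12 with a mean FPKM of at least 1, 31 with the GC trend removed (an alternative chosen after seeing the data) and 0 with the replicate block. The members' median log2 fold change of 0.20 was 0.163, 0.161 and 0.163 by limma with pseudocounts of 0.1, 1 and 0.01. The related lists held 12 calls at an unadjusted p under 0.05, against backgrounds of 5.37% higher and 5.86% lower. With the GC trend removed they held 25, against 7.78% higher and 6.15% lower of all genes.

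Leaving out 1 sample at a time gave 3 to 24 genes with an adjusted p under 0.05, 5 to 14 members with an unadjusted p under 0.05 (5 to 13 higher and 0 to 1 lower, against 3.10% to 8.39% and 3.49% to 9.69% of all genes), 0 to 1 members that were DEGs (1.83% to 3.00% of all genes), a members' median from 0.174 to 0.246, 11 to 22 calls in the related lists, and 15 to 20 members whose groups did not overlap, against 27.4% to 38.0% of all genes tested. In these fits MGST1 ranged from -0.0586 to 0.177, TXN from -0.0410 to 0.125, CBR1 from -0.0213 to 0.164, MAFG from -0.176 to 0.451, CBR3 from -0.146 to 0.0386 and NQO1 from -0.0395 to 0.282 on the log2 scale, each on both sides of 0. TXN was -0.0248, -0.0246 and -0.0249 by limma with pseudocounts of 0.1, 1 and 0.01. With the GC trend removed, SLC7A11 was 0.0323, GCLM 0.05002, CBR1 -0.0085 and PIR 0.00209, and TXN, GCLC and CAT passed the unadjusted threshold at 0.36, 0.29 and 0.26. None of these members had been called, and the cause of the changes was not tested. All 12 members with an unadjusted p under 0.05 kept their direction in all 17 alternatives.

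The samples share the numbers 1 to 3. Same-numbered samples correlated in their deviations from the group means at 0.03, 0.05 and 0.07, each sample best with its own number. Deviations within a group sum to 0, so each sample's correlations lie around 0. Values this small cannot decide whether the samples were paired, and the labels name no pairing. With the replicate block, 13 members had an unadjusted p under 0.05 (12 higher, background 5.50%, and 1 lower, background 6.96%) and none an adjusted one. TKT missed the unadjusted threshold in that fit, while KEAP1 and NQO2 came under it. Summing the AKR1C genes gave 3 counts in all and no fit. Depth limits GPX2, AKR1B10 and the AKR1C genes, whose 0 to 19 counts a sample allow no comparison.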
